A study of Mus musculus with 6 samples.

Results

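The genes described here carry fatty acids through their activation, their oxidation and their elongation. They were chosen by gene symbol as the families of the acyl-CoA synthetases, thioesterases, dehydrogenases, oxidases, thiolases, hydratases, isomerases, carnitine acyltransferases, elongases and desaturases, together with Fabp3, Crat and the electron transfer genes Etfa and Etfdh. Of the 17097 genes that a probe set named alone, 65 met this rule. The rule reads symbols and no values, but it was written with earlier results of these data known. Genes of these families that no probe set named alone here were not analysed. Each gene is given by its brightest probe set, the one with the highest mean over the 6 arrays.

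RNA came from gastrocnemius muscle of male ICR mice, bought at 7 weeks of age, whose sciatic nerves had been cut in both legs 14 days earlier. The MA group had 3 arrays and ate a diet with 0.27% maslinic acid (MA), a pentacyclic triterpene of olive fruit, from a week before the nerves were cut, and the control group had 3 arrays and ate the same AIN-93G based diet without it. All 6 arrays therefore came from denervated muscle, and no array of innervated muscle was analysed here. Whether each array held RNA of a mouse of its own is not stated in the sources used here, and a p-value accordingly reflects array-to-array spread alone.

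A fatty acid that enters a muscle fiber is carried by a binding protein and joined to coenzyme A by an acyl-CoA synthetase. Carnitine acyltransferases take the chain into the mitochondrion, where repeated rounds of dehydrogenation, hydration, a further dehydrogenation and thiolysis shorten it to acetyl-CoA, while electron transfer flavoprotein and its dehydrogenase pass electrons to ubiquinone. Peroxisomes shorten very long and branched chains, elongases and desaturases of the endoplasmic reticulum lengthen chains and add double bonds, and oxidative slow fibers are known to hold more of the mitochondrial system than fast glycolytic fibers.

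Of the 65 genes, 19 rose and 16 fell in the MA group at an adjusted p under 0.05, and 30 did not pass. These 35 genes were 53.8% of the family, against 47.8% of all genes. By direction, 24.7% of all genes rose and 23% fell. Above the array's background, which was a log2 value of 3.95, lay 56 of the 65 genes, and 34 of these, 60.7%, passed, against 57.2% of all genes above it. The family's shares were thus near those of the array as a whole, and its median log2 difference was -0.00194, against 0.00625 over all genes. Most changes were small, since 24 of the 35 were under 1.2-fold. At the thresholds of the study's methods, a fold over 1.2 with an unadjusted p below 0.05, 6 rose and 5 fell, or 16.9% of the family, against 12.8% of all genes, of which 5.92% rose and 6.87% fell. The 3 MA arrays lay wholly above the 3 control arrays for 21 of the 65 genes and wholly below them for 19, which is 61.5% without overlap, against 58.6% of all genes. With 3 arrays in each group, 0.1 is the smallest two-sided p of an exact permutation test.

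The counts ran in different directions from role to role. Among the hydratases, hydroxyacyl dehydrogenases and mitochondrial thiolases 4 of 7 rose and 0 fell. Among the acyl-CoA dehydrogenases with their electron transfer genes 5 of 11 rose and 3 fell. Among the acyl-CoA synthetases 4 of 6 fell and 0 rose, and both carnitine palmitoyltransferase genes that passed fell. These groups are too small to be set against the background shares by a test, and none was made.

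**Figure D1:**
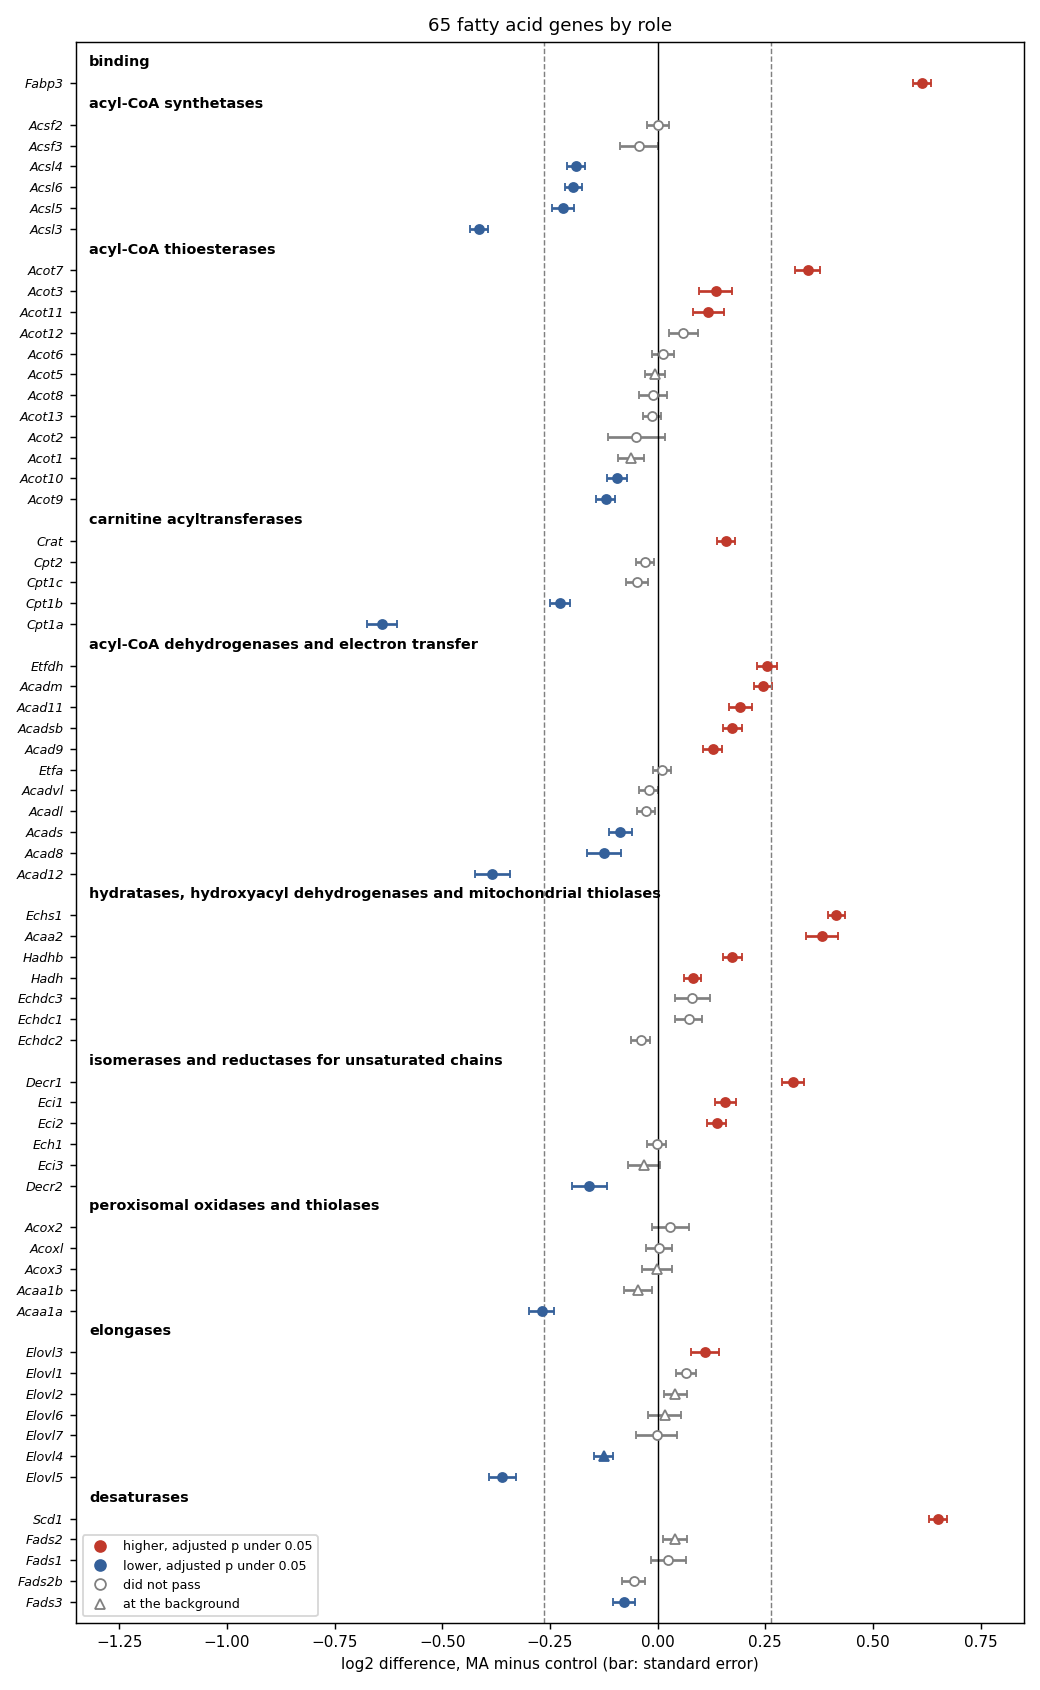
The log2 difference, MA minus control, of each of the 65 genes by role, with its standard error from limma and dashed lines at 1.2-fold. Filled red points are the 19 genes that rose, filled blue points the 16 that fell, open points the 30 that did not pass, and triangles the 9 genes at the array's background.

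The promoters of 4 of the genes that passed are given here because genes of fatty acid oxidation are known targets of PPAR, estrogen-related receptor and NRF1 proteins, and genes of fatty acid synthesis and desaturation of SREBP proteins. RefSeq promoters (GRCm38.p6) were matched for 55 of the 65 genes, 64 promoters in all and none for Scd1, Decr1 or Cpt1b, and the 250 bases before each start were searched on both strands. Fabp3, which rose, has its promoter at chr4:130308488-130308737 on the plus strand. For Cpt1a, which had the largest fall, the promoter shown is at chr19:3323051-3323300 on the plus strand. That window lies within the span of the gene, chr19:3322326-3385735, and so precedes a later start than the first base of the gene. Etfdh, which rose, is shown from chr3:79628768-79629017 on the minus strand, and Acsl6, which fell, from chr11:54303574-54303823 on the plus strand, because these hold the motifs that were found in few promoters. The window of Acsl6 ends shortly past the first base of its gene, at 54303805. Capitals mark a CCAAT box (CCAATC) in Cpt1a, a CCAAT box and then an NRF1 motif in Etfdh, and in Acsl6 the motif of estrogen-related receptors (TCAAGGTCA, here on the other strand) and then a CCAAT box. Fabp3 held none of the motifs searched.
Fabp3: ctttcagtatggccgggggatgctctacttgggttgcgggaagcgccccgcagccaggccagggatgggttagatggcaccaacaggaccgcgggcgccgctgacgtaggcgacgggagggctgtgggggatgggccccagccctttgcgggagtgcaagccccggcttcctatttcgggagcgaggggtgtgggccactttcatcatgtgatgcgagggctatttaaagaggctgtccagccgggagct
Cpt1a: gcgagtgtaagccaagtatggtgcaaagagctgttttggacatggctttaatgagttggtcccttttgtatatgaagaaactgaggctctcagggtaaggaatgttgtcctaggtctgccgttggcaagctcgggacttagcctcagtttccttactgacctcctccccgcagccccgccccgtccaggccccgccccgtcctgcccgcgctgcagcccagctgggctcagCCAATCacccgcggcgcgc
Etfdh: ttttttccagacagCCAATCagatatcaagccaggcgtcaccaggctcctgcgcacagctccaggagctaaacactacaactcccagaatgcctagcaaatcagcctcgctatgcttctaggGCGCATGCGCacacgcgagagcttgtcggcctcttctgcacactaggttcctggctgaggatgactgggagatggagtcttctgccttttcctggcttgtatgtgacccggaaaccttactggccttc
Acsl6: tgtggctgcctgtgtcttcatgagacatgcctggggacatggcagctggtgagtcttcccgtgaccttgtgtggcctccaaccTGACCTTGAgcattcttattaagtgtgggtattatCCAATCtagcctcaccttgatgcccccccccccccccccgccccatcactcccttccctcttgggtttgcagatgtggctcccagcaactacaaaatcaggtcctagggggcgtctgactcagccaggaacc
The direct repeat bound by PPAR and RXR, 2 copies of AGGTCA with 1 base between them, was in 0 of the 64 promoters, and in 0.0335% of all 32851 promoters of the table. The estrogen-related receptor motif was in 1, that of Acsl6, and in 0.387% of all promoters. The NRF1 motif was in 2, those of Etfdh and Acad12, of which the first gene rose and the second fell, and in 0.782% of all promoters. The SREBP motif was in 0, and in 0.0731% of all. CCAATC was in 19 promoters of 18 of the genes, or 29.7% of their promoters, against 14.6% of all, and of these 18 genes 5 rose and 6 fell. A match describes the letters of this window and not a bound site. The PPAR and SREBP motifs were so rare over all promoters that 0 in 64 says nothing about whether these genes hold such sites.

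Fabp3, the fatty acid binding protein of heart and slow muscle, was among the genes with the largest rise. Its log2 values were 9.41, 9.41 and 9.43 in the MA group, against 8.81, 8.80 and 8.80 in the control group. The MA arrays were all above the control arrays, and the difference was 0.61 ± 0.021 (SE, n = 3 each), or 1.53-fold, with an adjusted p of 1.68e-07. Markers of slow fibers moved with it. All 7 of them rose, with list means of 9.55 to 9.58 over the MA arrays and 8.31 to 8.32 over the control arrays. The 8 other markers of skeletal fibers, most of them genes of fast fibers, had list means of 12.23 on every MA array and 12.14 on every control array. Of these 5 rose and 0 fell, and the fast myosins Myh4 and Myh1 did not pass, with log2 differences of -0.02 and -0.05. Among the slow fiber markers Myh7, the slow myosin heavy chain, was higher by 1.14 on the log2 scale and Myl2, the slow myosin light chain, by 2.98. The rises were uneven, and those of Tnni1 and Atp2a2, at 0.10 and 0.23, were under 1.2-fold. In RNA of whole muscle more or fewer cells of a type and more or less RNA per cell cannot be told apart, and the part that fiber type had in the values below was not tested.

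All 4 long-chain acyl-CoA synthetases analysed here, Acsl3, Acsl4, Acsl5 and Acsl6, fell, and other isoforms were not analysed. These enzymes make the acyl-CoA that oxidation and lipid synthesis both draw on. Acsl3, a synthetase of lipid droplets and the endoplasmic reticulum, had 8.49, 8.52 and 8.51 in the MA group, against 8.92, 8.93 and 8.91 in the control group. Its arrays did not overlap, and it was lower by 1.33-fold with an adjusted p of 1.56e-06. Acsl5, an isoform of mitochondria and the endoplasmic reticulum, read 6.54, 6.57 and 6.54 in the MA group, against 6.81, 6.76 and 6.75 in the control group, a fold of 1.17 (adjusted p = 2.03e-04). Acsl6, an isoform of brain and muscle whose promoter is printed above, had 10.54, 10.53 and 10.54 in the MA group, against 10.73, 10.72 and 10.74 in the control group. Acsl4, which prefers arachidonic acid, had 8.65 on each MA array, against 8.85, 8.83 and 8.84 in the control group. For these also every MA array was below every control array, with log2 differences of -0.20 and -0.19 and adjusted p-values of 1.10e-04 and 1.35e-04. Acsf2 and Acsf3, synthetases of the related Acsf family, did not pass.

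At the mitochondrial membrane both palmitoyltransferases of the outer side that passed the test were lower. Cpt1a, the isoform of liver and of most other tissues, had log2 values of 6.37, 6.24 and 6.34 in the MA group, against 6.93, 6.96 and 6.97 in the control group. The groups stood far apart, the MA mean being 6.31 ± 0.066 and the control mean 6.95 ± 0.021 (SD, n = 3 each), with a 1.56-fold difference and an adjusted p of 2.43e-06. Cpt1b, the isoform typical of muscle fibers, had 7.73, 7.78 and 7.77 in the MA group, against 7.98, 8.00 and 7.99 in the control group, 1.17-fold lower (adjusted p = 9.21e-05). Crat, which moves acetyl groups between coenzyme A and carnitine, ran the other way, with 9.37, 9.36 and 9.34 in the MA group, against 9.20, 9.19 and 9.20 in the control group (adjusted p = 4.67e-04). Cpt2, the inner membrane partner, had a log2 difference of -0.03 (adjusted p = 0.312), and Cpt1c, the brain isoform, did not pass either.

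**Figure D2:**
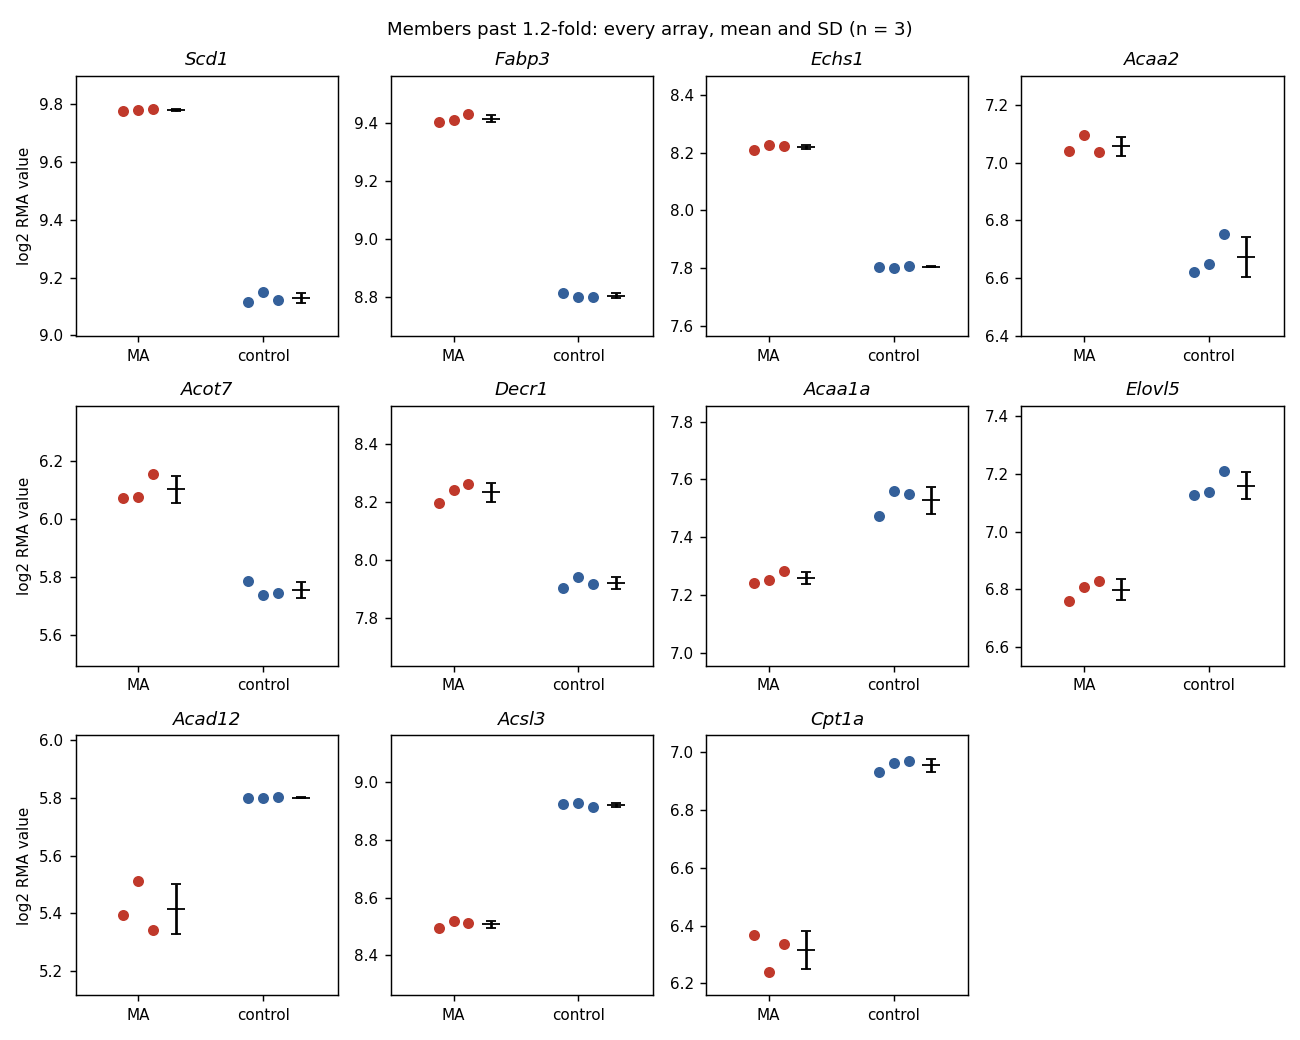
Log2 values of the 11 genes past 1.2-fold on every array, MA at the left and control at the right of each panel, with the mean and SD (n = 3) beside the points. In all 11 panels the groups do not overlap, and the axes start at different levels, so that levels are not to be read between genes.

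The medium-chain dehydrogenase rose, while the long-chain and very long-chain dehydrogenases did not pass. Acadm, the medium-chain enzyme, had 10.02, 10.04 and 10.00 in the MA group, against 9.77, 9.78 and 9.78 in the control group, 1.18-fold higher (adjusted p = 4.20e-05). Acadl, the long-chain enzyme, had 10.45, 10.48 and 10.45 in the MA group, against 10.49, 10.48 and 10.49 in the control group, a difference of -0.03 (adjusted p = 0.340). Acadvl, the very long-chain enzyme, differed by -0.02 (adjusted p = 0.493) and its arrays overlapped. Acads, the short-chain enzyme, was lower by a small amount, a log2 difference of -0.09 (adjusted p = 0.0312). Along chain length the medium-chain gene thus stood alone in rising among these 4.

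Etfdh, which hands the electrons of all these dehydrogenases to ubiquinone, had 8.32, 8.32 and 8.36 in the MA group, against 8.06, 8.10 and 8.08 in the control group. Its 1.19-fold rise (adjusted p = 5.54e-05) lay just under the 1.2-fold limit, and that of Acaa1a, a fall of 1.21-fold, just past it. Etfa, a subunit of the flavoprotein that feeds Etfdh, differed by 0.01 (adjusted p = 0.729). Smaller rises were measured for Acad11 (log2 difference 0.19), for Acadsb of isoleucine breakdown (0.17) and for Acad9, which also helps to assemble complex I (0.13). Acad12 had the largest fall among the dehydrogenases, with 5.39, 5.51 and 5.34 in the MA group, against 5.80 on each control array, 1.30-fold lower (adjusted p = 1.16e-04). The MA arrays of Acad12 spread more, with an SD of 0.0862, against 0.00165 among the control arrays. Acad8, of valine breakdown, was lower by a log2 difference of -0.13 (adjusted p = 0.0325).

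Of the 7 genes grouped with the later steps of the mitochondrial round, some of them by family alone, 4 rose. Echs1, the short-chain enoyl-CoA hydratase, had 8.21, 8.22 and 8.22 in the MA group, against 7.81, 7.80 and 7.81 in the control group. Both groups were tight, and the 1.33-fold difference had an adjusted p of 1.31e-06. Acaa2, the mitochondrial thiolase of the last step, had 7.04, 7.09 and 7.03 in the MA group, against 6.62, 6.65 and 6.75 in the control group, 1.30-fold higher (adjusted p = 7.16e-05). Hadhb, the thiolase subunit of the trifunctional protein, had 10.56, 10.58 and 10.56 in the MA group, against 10.40, 10.40 and 10.37 in the control group (adjusted p = 3.09e-04). Hadh, the short-chain hydroxyacyl-CoA dehydrogenase, was higher by a log2 difference of 0.08 (adjusted p = 0.0114). Echdc1, Echdc2 and Echdc3, members of the hydratase family by sequence, did not pass.

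Chains with double bonds need isomerases and reductases before they can go through the round. Decr1, the mitochondrial dienoyl-CoA reductase, had 8.20, 8.24 and 8.26 in the MA group, against 7.90, 7.94 and 7.92 in the control group, 1.24-fold higher (adjusted p = 2.60e-05). The enoyl-CoA isomerases Eci1 and Eci2 rose with it, by log2 differences of 0.16 (adjusted p = 0.00118) and 0.14 (adjusted p = 0.00166). Decr2, the peroxisomal reductase, was lower by a log2 difference of -0.16 (adjusted p = 0.0150). Ech1, a dienoyl-CoA isomerase, had an MA mean of 9.54 and a control mean of 9.54, and Eci3 was at the background.

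Of the 5 genes of peroxisomal oxidases and thiolases, 1 passed. Acaa1a, a peroxisomal thiolase, had 7.24, 7.25 and 7.28 in the MA group, against 7.47, 7.56 and 7.55 in the control group (adjusted p = 1.30e-04). Its near-identical copy Acaa1b lies on the same chromosome (Acaa1a at chr9:119341028-119350296 and Acaa1b at chr9:119148043-119157093, GRCm38.p6), and the probe set of Acaa1a is of a kind that can bind several transcripts, so its reading is uncertain. Acaa1b and Acox3 were at the background, and Acox2 and Acoxl did not pass.

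Among the 12 thioesterases, which release the fatty acid from coenzyme A again, 3 rose and 2 fell. Acot7, a thioesterase of long chains best known from brain, had 6.07, 6.08 and 6.16 in the MA group, against 5.78, 5.74 and 5.74 in the control group, 1.27-fold higher (adjusted p = 3.43e-05). Acot9, of mitochondria, had 8.55, 8.58 and 8.57 in the MA group, against 8.70, 8.69 and 8.67 in the control group (adjusted p = 0.00263). Acot10 is a mouse copy of Acot9, and probes may bind both. It had 8.89, 8.93 and 8.93 in the MA group, against 9.01, 9.00 and 9.02 in the control group (adjusted p = 0.0104). Acot3 and Acot11 rose by 0.13 and 0.12 on the log2 scale, and the remaining 7 thioesterases did not pass. Both were near the background of 3.95, with means of 4.07 for Acot3 and 4.18 for Acot11 in the MA group. The control means were 3.94 and 4.06. The other probe set of Acot11 was at the background and did not pass. The log2 difference of Acot2, the mitochondrial enzyme of a gene cluster on chromosome 12, was -0.05 (adjusted p = 0.586), and here control array 3, at 4.96, stood below the other control arrays, both at 5.23. Without that array the difference of Acot2 was -0.14 (adjusted p = 0.00523). Acot1, Acot2, Acot3, Acot5 and Acot6 of this cluster are close copies, and the readings of their probe sets are uncertain.

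Scd1, the desaturase that makes monounsaturated fatty acids, had the largest rise of the 65 genes. It had 9.78 on each MA array, against 9.12, 9.15 and 9.12 in the control group, which is 1.57-fold higher (adjusted p = 1.32e-07). Scd1 is also abundant in fat cells, whose 9 measured markers were mixed. Of these 4 rose, 2 fell and 3 did not pass, and the list means were 6.90 to 6.92 over the MA arrays and 6.82 to 6.87 over the control arrays. Adipoq, a defining marker of fat cells, rose by 0.64 on the log2 scale, and Lpl and Fabp4 fell. Lep, among the 4 that rose, and Pck1 were at the background. The part of fat cells in the reading of Scd1 was not tested. Fads1, Fads2 and Fads3, the first 2 of which desaturate polyunsaturated chains, lie together on chromosome 19. Fads1 had a log2 difference of 0.02 at its brightest probe set, which did not pass, and of 0.10 at the other (adjusted p = 0.0321). Fads2 was at the background. Fads3 was lower by log2 differences of -0.08 (adjusted p = 0.0423) and -0.26 (adjusted p = 1.79e-04) at 2 probe sets, and the remaining set did not pass. Fads3 was the passing gene nearest the limit, and Elovl1, with an adjusted p of 0.0526, the nearest outside it.

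Among the 7 elongases 1 rose and 2 fell. Elovl5, which lengthens polyunsaturated chains, had 6.76, 6.81 and 6.83 in the MA group, against 7.13, 7.14 and 7.21 in the control group, 1.28-fold lower (adjusted p = 3.41e-05). Elovl3 rose by 0.11 on the log2 scale (adjusted p = 0.0265). Elovl4 differed by -0.12 (adjusted p = 0.00214) at the background level, where values have little meaning. Elovl6, which lengthens saturated chains, was at the background too and differed by 0.02 (adjusted p = 0.753). Elovl1, Elovl2 and Elovl7 did not pass, but the other probe set of Elovl1 rose by 0.19 on the log2 scale (adjusted p = 0.0046).

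For 26 of the 65 genes more than 1 probe set named the gene alone. In 8 of them every probe set passed in the same direction, in 10 some passed and the others did not, in 6 none passed, and in 2, Hadhb and Acaa1a, probe sets passed in opposite directions. The dimmer probe set of Hadhb had 5.10, 5.04 and 5.14 in the MA group, against 5.21, 5.25 and 5.24 in the control group, a difference of -0.14 (adjusted p = 0.00679), which is opposite to the brightest set. For Acaa1a 3 probe sets were lower by log2 differences of -0.27, -0.16 and -0.13, the last at the background. The remaining set was higher by 0.10. Acaa2 rose at all 3 of its probe sets but by unequal amounts, with log2 differences of 0.38, 0.25 and 1.19, the last from 6.14, 6.25 and 6.27 in the MA group, against 5.02, 5.09 and 5.00 in the control group. Acsl3 fell at all 3, by log2 differences of -0.41, -0.46 and -0.19, and Elovl5 at both, by -0.36 and -0.44. The second probe set of Scd1 was higher by only 0.12 (adjusted p = 0.0220). Which transcripts these probe sets read was not tested.

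**Figure D3:**
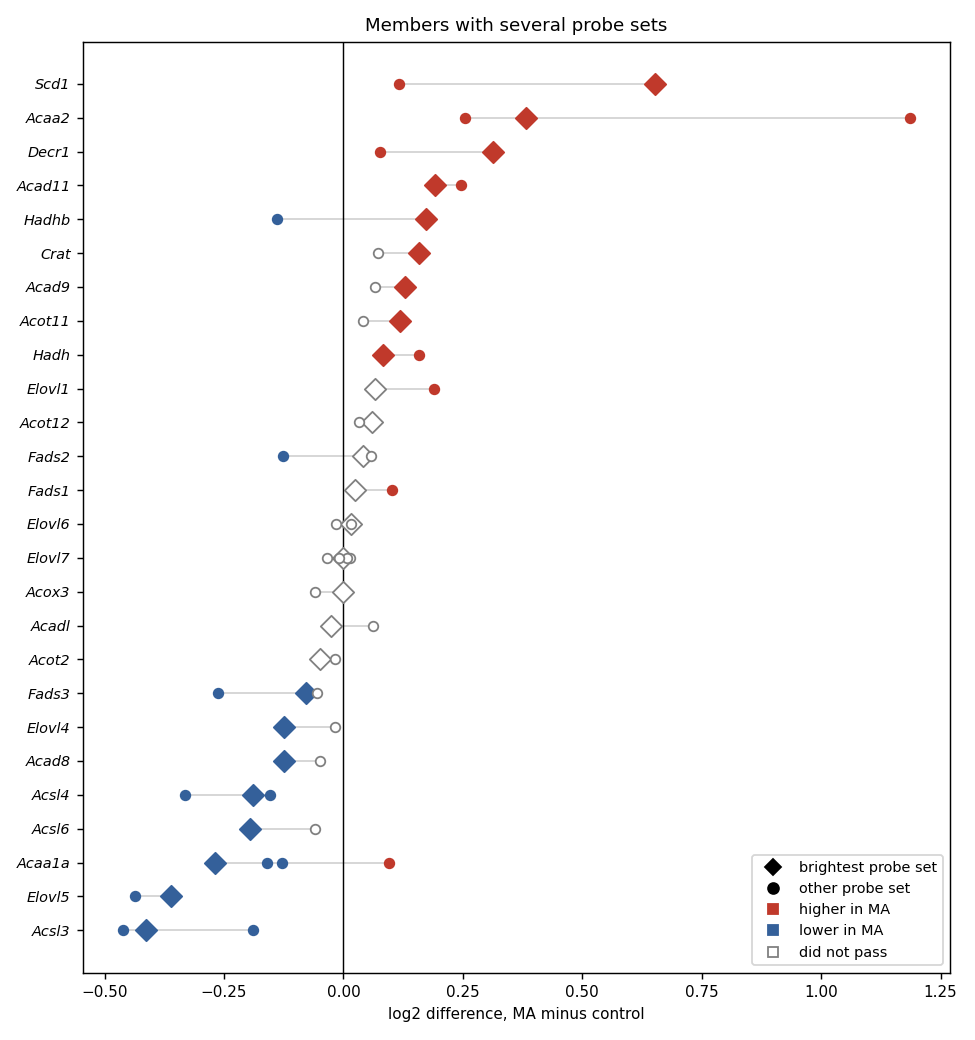
Log2 differences, MA minus control, at every probe set of the 26 genes with more than 1, the brightest as a diamond and the others as circles, filled where the adjusted p was under 0.05. Hadhb and Acaa1a have filled points on both sides of 0, and the probe sets of Acaa2 run from 0.25 to 1.19.

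Beyond the family, 70 further genes of fatty acid handling were followed in lists by role, of which 25 rose, 23 fell and 22 did not pass. The 48 that passed were 68.6% of them, against 47.8% of all genes. Above the array's background lay 68 of the 70, and 47 of these passed, against 57.2% of all genes above it. The counts of each list below are also to be read beside these shares, and no test of the lists was made. The median log2 difference of the 70 genes was 0.0215, against 0.00625 over all genes. Genes of uptake and trafficking fell in 5 of 9 cases and rose in 1. Lpl, the lipase that frees fatty acids from lipoproteins, had 9.94, 9.92 and 9.93 in the MA group, against 10.25, 10.22 and 10.24 in the control group (adjusted p = 9.73e-06). Gpihbp1, which holds Lpl on capillary walls, was lower by a log2 difference of -0.25 and the fatty acid transporter Cd36 by -0.13. Endothelial markers were lower in the same arrays, 5 of 6 of them, with list means of 4.88 to 4.93 in the MA group and 5.06 to 5.14 in the control group, and their part in the values of Lpl, Gpihbp1 and Cd36 was not tested.

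Genes around malonyl-CoA and fatty acid synthesis rose in 5 of 8 cases and fell in 1. Acss2, which activates acetate, was higher by a log2 difference of 0.41 (adjusted p = 4.18e-06) and Fasn, the fatty acid synthase, by 0.28 (adjusted p = 1.13e-04). Acaca, the acetyl-CoA carboxylase of synthesis, rose by 0.27 on the log2 scale, and Me1, which supplies NADPH, by 0.25. Acacb, the mitochondrial carboxylase whose malonyl-CoA inhibits the enzymes of Cpt1a and Cpt1b, had 7.96, 7.99 and 8.00 in the MA group, against 8.21, 8.21 and 8.20 in the control group (adjusted p = 9.11e-05). In the carnitine list 1 of 5 rose and 2 fell. Its largest differences were those of Aldh9a1 (-0.31) and Bbox1 (0.18), both of carnitine synthesis, and Slc25a20, the carrier that brings acylcarnitine across the inner membrane, differed by -0.10 (adjusted p = 0.00468).

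The 4 measured genes of ketone and propionate use all rose. Oxct1, which lets muscle use ketone bodies, had 9.47, 9.45 and 9.46 in the MA group, against 8.82, 8.79 and 8.78 in the control group, 1.58-fold higher (adjusted p = 1.47e-07). Pcca, a subunit of propionyl-CoA carboxylase, had 8.30, 8.29 and 8.26 in the MA group, against 7.67, 7.70 and 7.68 in the control group, 1.52-fold higher (adjusted p = 3.05e-07). Acat1, the thiolase of ketone metabolism, rose by 0.22 on the log2 scale and Pccb, the partner of Pcca, by 0.11. In neither of the first genes did the arrays of the groups overlap.

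In the peroxisome list 4 of 10 rose and 3 fell. Phyh, which starts the oxidation of phytanic acid, was higher by a log2 difference of 0.38 (adjusted p = 2.73e-06), and Abcd3, a transporter of the peroxisomal membrane, lower by one of -0.42 (adjusted p = 1.86e-06). Of the 12 lipid droplet and lipolysis genes 4 rose and 5 fell. Plin2, a coat protein of droplets in many cells, had a log2 difference of -0.46 (adjusted p = 1.47e-06) and Plin4, a coat protein of fat cells and muscle, 0.38 (adjusted p = 4.27e-06). Of the 4 partners of the elongases 1 rose and 1 fell, Hacd1, the muscle dehydratase of the elongation cycle, by 0.13, and Tecr, its last reductase, with a difference of -0.10.

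Among the 18 measured regulators and genes known to respond to fatty acids 5 rose and 6 fell. Angptl4, an inhibitor of Lpl that PPAR proteins induce, had the largest difference among these 70 genes, with 5.50, 5.58 and 5.55 in the MA group, against 7.03, 7.01 and 7.02 in the control group, 2.78-fold lower (adjusted p = 3.99e-09). Ucp3, the uncoupling protein of muscle, had 6.46, 6.47 and 6.54 in the MA group, against 7.32, 7.32 and 7.33 in the control group, 1.78-fold lower (adjusted p = 1.22e-07). Pdk4, the kinase that turns muscle away from glucose oxidation, was lower by a log2 difference of -0.22 (adjusted p = 5.34e-05), as was Cpt1a, another known target of PPAR proteins, while Fabp3 and Acadm, also known as such targets, rose. Of the regulators of mitochondrial genes, Ppargc1b rose by 0.16 on the log2 scale and Nrf1 by 0.10 (adjusted p = 0.0369). Esrra differed by 0.04 without passing, and Ppargc1a was not among the genes analysed here. Sirt3 had a log2 difference of -0.14 (adjusted p = 0.0464) with overlapping arrays, while Sirt5 and Prkaa2 rose by 0.14 and 0.13. Nrf1 no longer passed without MA array 1 (adjusted p = 0.111) or MA array 2 or any of the control arrays. Another of the 5 that rose, Pparg, was at the background. Nr1h3, a sterol receptor, and Txnip, a gene that responds to glucose, had log2 differences of -0.48 and -0.45. Macrophage markers were lower in the MA arrays in 8 of 10 cases, with list means of 6.26 to 6.30 in the MA group and 7.09 to 7.11 in the control group. Of the remaining markers Itgam was at the background, and Cd68 differed by 0.12 on the log2 scale without passing. The part of macrophages in the falls of Plin2, Nr1h3, Cpt1a and Acsl3, genes that they also express, was not tested.

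**Figure D4:**
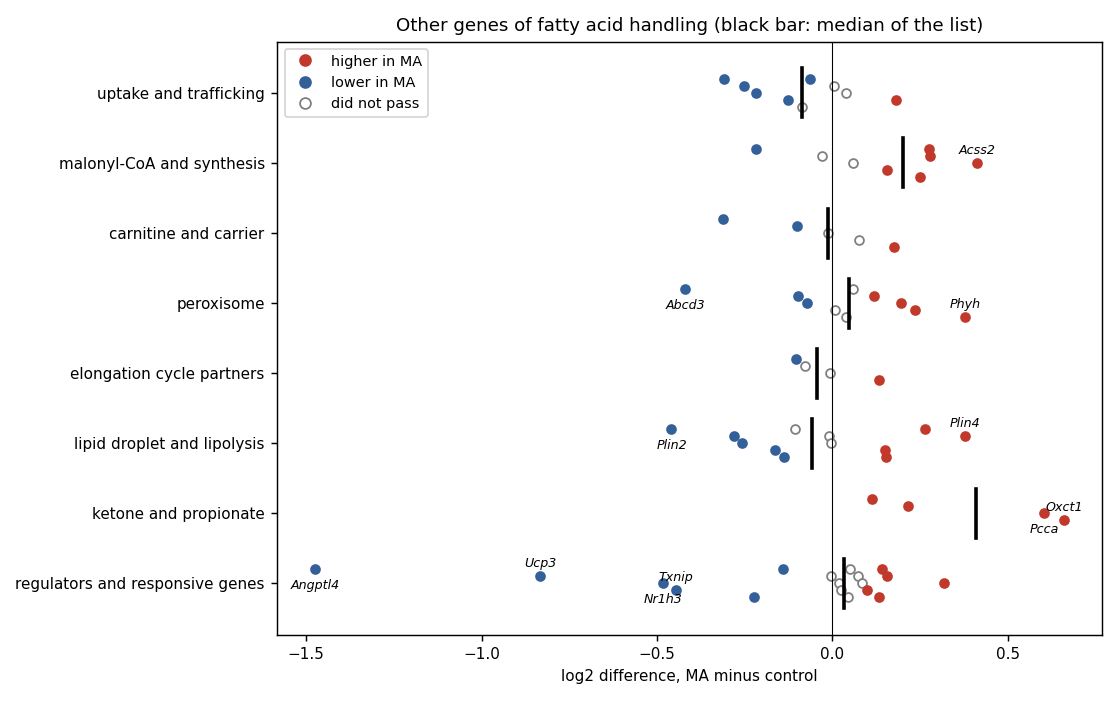
Log2 differences, MA minus control, of the 70 further genes of fatty acid handling by list, with a black bar at each list's median. All 4 genes of ketone and propionate use lie to the right of 0, and Angptl4 and Ucp3 lie farthest to the left, at -1.48 and -0.83.

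Markers of further cells were mixed. Of the tendon markers 4 of 4 were higher, with list means of 7.39 to 7.41 in the MA group and 6.29 to 6.30 in the control group, and of the fibroblast markers 3 of 5, with list means of 8.17 to 8.21 in the MA group and 7.83 to 7.86 in the control group. Of 4 T cell markers 1 rose and 2 fell, and of 3 Schwann cell markers 1 rose and 2 fell. Among these falls, the T cell marker Cd3g and the Schwann cell marker S100b were at the background. Of 2 red blood cell markers 1 fell and the other did not pass. All 18 probe sets for the spiked-in hybridization control RNAs read higher on the MA arrays, by 0.173 on the log2 scale at the median and by 0.354 at most. Of the 19 genes that rose, 15 rose by no more than that, and of the 16 that fell, 12 fell by no more. The part of this shift in their values was not tested. The array medians differed by less than 0.01, from 4.266 to 4.276, and no array stood apart, since r over probe sets, which are not independent replicates, was 0.9992 to 0.9997 within groups and 0.9934 to 0.9937 between them.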

How the data were processed

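The deposited table held a log2 value for each of 45141 probe sets on 6 arrays. The authors labelled RNA with a 3' IVT kit, hybridized GeneAtlas mouse array strips and normalized the scans with RMA in Affymetrix Expression Console, whose version is not given in the sources used here. RMA subtracts background, equalizes the distributions of the arrays by quantiles and returns these log2 values, so that a shift shared by most transcripts would be removed and small folds are compressed. The design text of the series names a human array, but the probe sets carry the names of a mouse array.

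The 104 array controls were set aside, and the other 45037 probe sets were fitted in R 4.3.3 with limma 3.58.1 (lmFit and eBayes, all 6 arrays, no covariate), and the two-sided p-values of all of them were adjusted together (Benjamini-Hochberg). "Rose" and "fell" mean an adjusted p under 0.05. Of these probe sets 28898 named 1 gene, 551 several and 15588 none; 7 probe sets of the family that also name another gene were not used. All 65 genes were matched to RefSeq (GRCm38.p6) by gene ID. The background level was to be the highest of the controls for nonspecific binding. The control of only G and C bases reads far above the others (7.11 to 7.33), so it was set aside for this purpose and the next highest, 3.95, was used.

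Genes were named where they passed the adjusted p and 1.2-fold, where they were the brightest of their role, or where they had one of the 2 largest differences of a list of other fatty acid genes above background. Further members were named as examples after their values were seen. The members, lists and rules were chosen with earlier results of these data known. No list was tested as a set. Precision is limited by the small number of arrays. The median SD within groups was 0.0365. On simulated data with the spread of these arrays, 26% of 50 probe sets changed by 1.1-fold were called and 68% at 1.2-fold. At 1.5-fold 100% were called and at 2-fold 98%, with 6 false calls among 44837 unchanged probe sets. Few probe sets were changed in the simulation, whereas 47.8% of all genes passed in the data. Its adjusted p limit was therefore stricter, and these shares do not give the power in the data. The alternatives were the methods' t-test, eBayes with a trend or robust moderation, median centring, a repeated quantile normalization, leaving out dim probe sets, the mean of a gene's probe sets, array weights, a replicate block and leaving out each array.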

Additional observations from a re-analysis of the deposited data

How the results depend on the processing

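Of 1257 values of 81 genes recomputed under 16 alternatives, 1201 kept their direction and their side of the threshold. Of the 35 genes of the family that passed, 27 kept the call and direction in every setting in which they were tested, the filters on dim probe sets having left some out, and 0 reversed. The call was lost in 1 or more settings for Acad8, Acads, Acot3, Acot11, Decr2, Elovl3, Fads3 and Hadhb, for Hadhb only with the mean of its probe sets, which differ in direction (0.0170, adjusted p = 0.497). Genes that did not pass changed sign at Etfa (-0.00362, quantile normalization again), at Acadl (0.0174) and Fads2 (-0.00993) with the mean of their probe sets, and on leaving out 1 array at Ech1 (-0.00812 to 0.00794, above 0 without MA replicate 1, at 0.00264, or without control replicate 3), Fads1 (-0.0175 to 0.0689, below 0 without MA replicate 3) and Elovl6 (-0.0232 to 0.0531, below 0 without control replicate 3). Among genes that had not passed, Elovl1 passed with quantile normalization again, with dim probe sets left out and with the mean of its probe sets. So did Acadl under eBayes with a trend, Acot2 without control replicate 3 and Esrra with quantile normalization again. Leaving out 1 array at a time gave 17 to 19 genes higher and 13 to 16 lower, 6 to 7 higher and 4 to 5 lower past 1.2-fold, and 23 to 25 higher and 20 to 24 lower among the other fatty acid genes. Of all genes 39.9% to 47.7% passed in these settings. The family's median ranged over -0.00463 to 0.00852, the highest without MA replicate 2. A filter at the control of only G and C, chosen after seeing the data, left 27 of the 65 and 24 of the 70 genes. It gave 8 lower, 2 lower past 1.2-fold and a median of 0.00973 in the family, and 11 higher and 12 lower among the other genes. Genes of the family also rose under it, Fabp3, Echs1 and Scd1 among them, and their count is not given here. Of all genes kept by this filter 85.3% passed, 42.5% higher and 42.7% lower, with a median of -0.00393. Same-numbered arrays deviated together weakly (r = 0.188, 0.0416 and 0.142 for the 3 numbers), so the numbers were not taken to pair the samples. With the number as a replicate block 19 genes were higher and 15 lower, Fads3 being lost (adjusted p = 0.0558), as was Nrf1 (adjusted p = 0.0596). Of all genes 48.8% passed with that block. With 3 arrays a group small changes can be missed, and how often a 1.1-fold change was missed in these data was not measured. Levels near the background carry little information.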
